A study of Mus musculus with 4 samples.

Results

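Axon guidance ligands and receptors are the secreted and membrane-bound cues, and the receptors that read them, which steer growing axons and which many non-neuronal cells also use for adhesion and migration. Peaks of open chromatin were taken as members by the gene symbol in the authors' deposited table. The symbol began with Sema, Plxn, Epha, Ephb, Efna, Efnb or Robo, or was Nrp1, Nrp2, Slit1, Slit2, Slit3, Ntn1, Ntn3, Ntn4, Ntng1, Ntng2, Dcc, Neo1 or Dpysl3. Ntn5, another netrin, is outside the rule and was counted among the other pathway genes. The rule found 525 of 80881 peaks, at 66 genes, and no peak in the table carried the symbol Dcc. The number of peaks per gene ran from 1 to 39, with a median of 6.

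The data came from ATAC-seq, which marks open DNA by where a transposase can insert adapters, in KPC cells, a mouse lung adenocarcinoma line of KP tumour origin. Both groups had received Cas9 from a lentivirus under puromycin selection and a lentiviral vector for CRISPR activation. The mA2 dRNA group carried a guide against Malat1, a nuclear long noncoding RNA, and the Con dRNA group a guide against luciferase, which the mouse genome lacks, with 2 libraries in each group. The labels do not say whether the cells were clones or pools, and ATAC-seq does not measure the Malat1 RNA.

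Every level is the mean of normalized reads that the authors give per group for a peak, and coordinates are mm10. The table's header names the groups dmA12 and dLuc, which were taken as mA2 dRNA and Con dRNA because the series holds a single contrast. Nearly all peaks were windows of equal length (99.8% were 401 bp, with 2 exceptions among the members), so levels can be set side by side per window. Values per library could not be tied to samples by name and were not used, so no standard deviation stands beside any mean. Whether a difference exceeded the spread between libraries rests on the authors' adjusted p alone, in a comparison of 2 libraries against 2. Peaks with that adjusted p under 0.05 count as called, and are said to have risen or fallen. A gene name beside a peak is the authors' assignment and not evidence that the peak regulates that gene.

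Semaphorins signal through plexins, with neuropilins as co-receptors for the secreted class 3 members. Ephrins are bound to the membrane and are read by Eph receptor tyrosine kinases on neighbouring cells. Slits are secreted ligands of the Robo receptors, netrins are read by Dcc and Neo1 (neogenin), and Dpysl3 belongs to the cytosolic CRMP proteins that act downstream of semaphorins on the cytoskeleton.

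The promoters of 6 genes with a called peak are printed here because the deposited table has a promoter peak over part or all of each. Of the 66 symbols, 57 were found in the RefSeq promoter table (GRCm38.p6, the assembly also called mm10). An entry that a promoter peak of the same gene overlapped was found for 34 genes. Each run is the 250 bases before a RefSeq start site, 5′ to 3′ on the gene's strand, with every CpG in capitals. They lie at chr16:74411826-74412075 on the minus strand for Robo2 and chr1:62703067-62703316 on the plus strand for Nrp2. The Plxnb2 run is chr15:89180789-89181038, the Ntng1 run chr3:110143473-110143722, the Efna1 run chr3:89280952-89281201 and the Efnb2 run chr8:8661243-8661492, all on the minus strand.
Robo2: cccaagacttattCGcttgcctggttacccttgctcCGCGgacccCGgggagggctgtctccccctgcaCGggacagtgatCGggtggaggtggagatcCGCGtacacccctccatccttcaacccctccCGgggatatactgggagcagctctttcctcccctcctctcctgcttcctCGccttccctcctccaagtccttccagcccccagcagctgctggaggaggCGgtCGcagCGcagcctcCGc
Nrp2: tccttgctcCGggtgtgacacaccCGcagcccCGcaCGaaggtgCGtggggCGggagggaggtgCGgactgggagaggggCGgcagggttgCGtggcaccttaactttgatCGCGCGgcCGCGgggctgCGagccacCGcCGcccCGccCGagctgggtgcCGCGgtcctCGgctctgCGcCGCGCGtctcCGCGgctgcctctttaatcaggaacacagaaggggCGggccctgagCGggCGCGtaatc
Plxnb2: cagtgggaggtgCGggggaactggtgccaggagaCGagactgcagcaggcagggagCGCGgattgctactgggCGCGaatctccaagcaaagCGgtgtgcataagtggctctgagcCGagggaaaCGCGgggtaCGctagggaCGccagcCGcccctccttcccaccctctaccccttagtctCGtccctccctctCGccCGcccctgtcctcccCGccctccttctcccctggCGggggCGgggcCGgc
Ntng1: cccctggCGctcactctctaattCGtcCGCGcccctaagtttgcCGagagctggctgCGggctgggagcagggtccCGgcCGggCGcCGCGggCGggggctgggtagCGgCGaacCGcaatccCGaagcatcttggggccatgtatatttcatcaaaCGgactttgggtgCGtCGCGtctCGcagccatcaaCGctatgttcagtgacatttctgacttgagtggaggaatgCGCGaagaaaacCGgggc
Efna1: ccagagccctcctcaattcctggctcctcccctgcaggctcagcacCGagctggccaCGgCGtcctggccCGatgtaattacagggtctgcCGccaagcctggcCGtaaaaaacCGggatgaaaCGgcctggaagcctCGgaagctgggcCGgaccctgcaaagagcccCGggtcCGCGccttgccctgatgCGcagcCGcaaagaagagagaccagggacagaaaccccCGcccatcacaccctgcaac
Efnb2: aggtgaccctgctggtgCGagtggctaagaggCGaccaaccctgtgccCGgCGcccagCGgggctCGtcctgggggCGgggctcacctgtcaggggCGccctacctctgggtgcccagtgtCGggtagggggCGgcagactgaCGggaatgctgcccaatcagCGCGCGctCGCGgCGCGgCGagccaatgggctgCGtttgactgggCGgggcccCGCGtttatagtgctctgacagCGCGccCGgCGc

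All 6 runs were richer in CpG than the median promoter. They held 14 CpG in Robo2, 32 in Nrp2, 20 in Plxnb2, 25 in Ntng1, 16 in Efna1 and 27 in Efnb2, against a median of 6 over 32851 RefSeq promoters of that length. Their GC content ran from 62.4% in Ntng1 to 72.4% in Nrp2, against a median of 52.4%. The open peak covered 114 of the 250 bases in Robo2, 174 in Nrp2, 232 in Plxnb2, 46 in Ntng1, 248 in Efna1 and all 250 in Efnb2. Both medians are over all RefSeq promoters, with or without a peak. Many CpG were not particular to these 6, since among members without a called peak Neo1 held 45 and Sema3c 39, while Sema4f held 4. Of the 6, only Robo2 had its promoter peak called.

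Motifs for 6 factor families were searched on both strands of these bases. The letters were TGANTCA for AP-1, GGAATG for TEAD, CCGGAA for ETS, TGTTTAC for forkhead, TGTGGT for RUNX and AGATAA for GATA. The Ntng1 run held GGAATG with its first base 24 bases before the start site, and the Efnb2 run held it 105 bases before its own. The Ntng1 match lies outside the open peak, which covers the 46 bases of that run farthest from the start site. No letters of the other motifs occurred in the 6 runs. Of all 32851 promoters, 12.6% held the TEAD letters, 6.75% the AP-1, 12.0% the ETS, 3.17% the forkhead, 14% the RUNX and 9.99% the GATA letters. Of the 34 member genes with an entry under a promoter peak, 8 held the TEAD letters, 3 the ETS, 4 the RUNX and 2 the GATA letters, and 0 held the AP-1 or forkhead letters. These counts are by gene and only under peaks, while the shares are by promoter, with or without a peak. The counts and shares are therefore not directly comparable, and no difference was tested.

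Across the whole set, 12 peaks of 7 genes opened and 4 peaks of 3 genes closed in Malat1-guide cells. The 16 called peaks were 3.05% of the members, against 2.73% of all 80881 peaks in the table. Higher calls made up 2.29% of the members and 2.23% of all peaks, and lower calls 0.762% and 0.507%. These shares lie close to those of the whole table, so the count by itself is no result about guidance genes. By the unadjusted p of the authors' deposited table, 84 member peaks (16%) were under 0.05, against 11.7% of all peaks.

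The typical guidance peak differed little between the groups. The median difference, as the log2 mean in Malat1-guide cells minus that in luciferase-guide cells, was 0.10 over the members and 0.09 over all peaks. The difference ran from -2.39 to 2.98 over the members, and 306 of 525 (58.3%) had the higher mean in Malat1-guide cells, against 60.8% of all peaks. The median member peak held 68.9 reads in Malat1-guide cells and 60.7 in luciferase-guide cells. The split of calls moved when a common shift was subtracted from the differences before p was recomputed. Centring on the median of all peaks gave 10 higher and 7 lower calls, along abundance 10 and 8, by chromosome 11 and 4, and by 10 Mb window 9 and 3. Over all peaks the same settings gave 1307 higher and 590 lower, 1272 and 564, 1179 and 478, and 1069 and 445, against 1801 and 410 without centring.

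**Figure D1:**
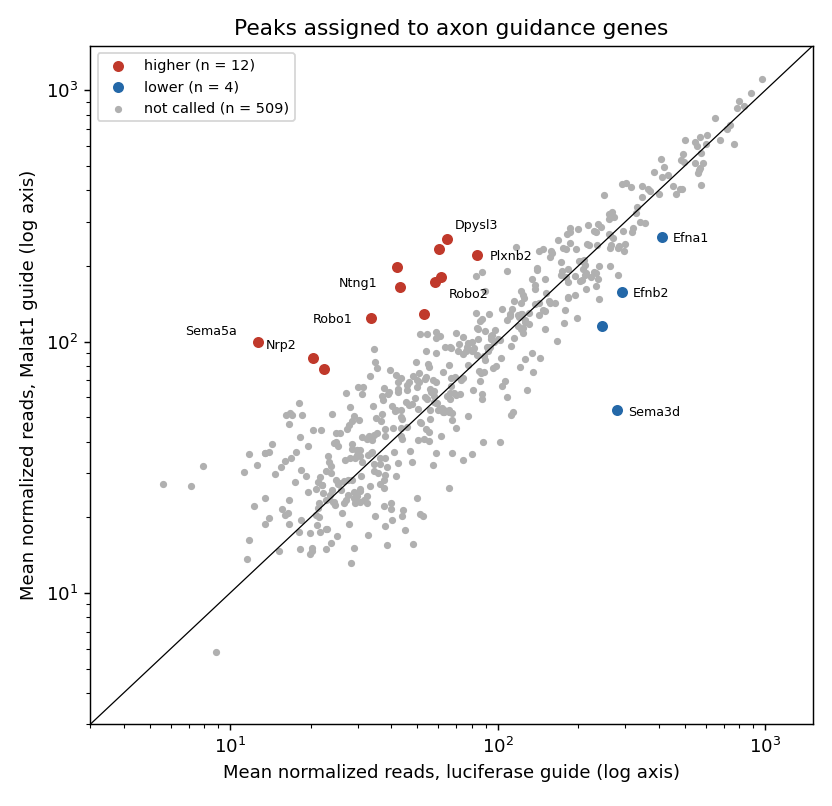
Mean normalized reads per peak for the 525 member peaks, with Malat1-guide cells on the vertical axis and luciferase-guide cells on the horizontal axis (both log axes), and the line of equality. Red points are the 12 peaks called higher and blue points the 4 called lower, with each gene named once at its peak of smallest p, and most grey points lie near the line.

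Calls were made on the difference of the group levels, so the levels of called peaks are given as a description. The 12 risen peaks held 77.9 to 255 reads in Malat1-guide cells and 12.7 to 83.9 in luciferase-guide cells. The 4 fallen peaks held 53.2 to 261 reads in Malat1-guide cells and 245 to 412 in luciferase-guide cells. The folds ran from 2.43 to 7.87 for the rises and from 1.58 to 5.25 for the falls.

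**Figure D2:**
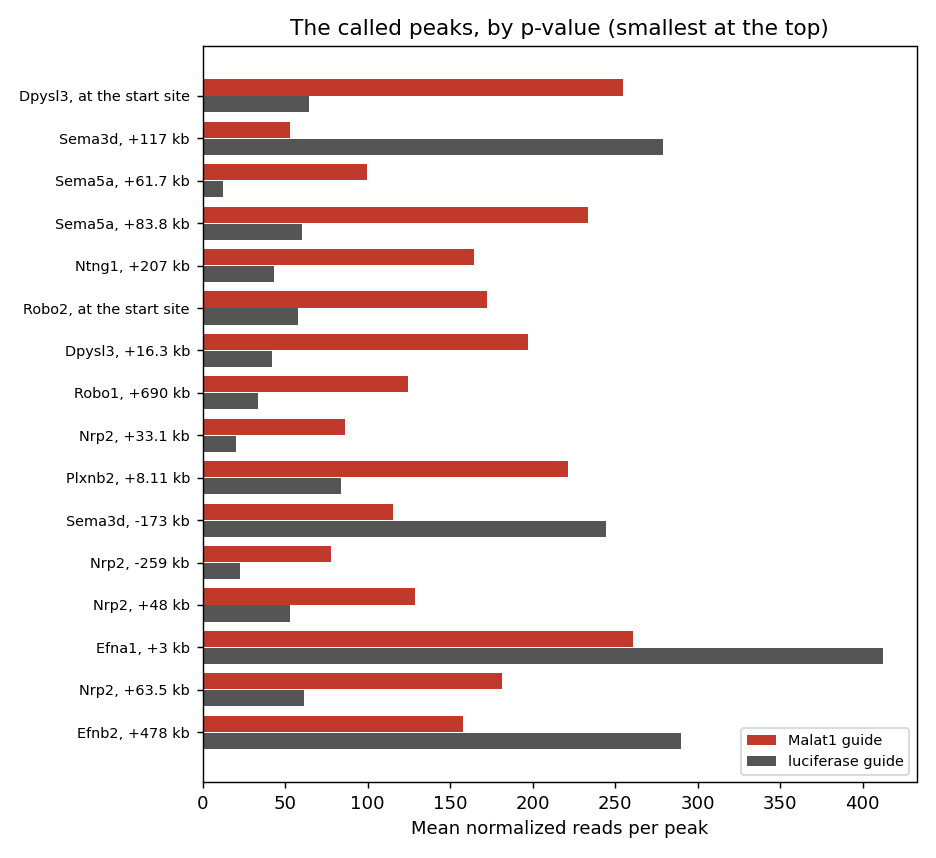
Mean normalized reads (horizontal axis, from 0) in the 16 called peaks, with Malat1-guide cells in red above luciferase-guide cells in grey, ordered by p with the smallest at the top. Labels give the gene and the signed distance from its start site, and the falls at Sema3d, Efna1 and Efnb2 stand out as longer grey bars.

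Among the semaphorins, the opening lay at Sema5a and the closing at Sema3d. The family had 131 peaks at 20 genes, of which 2 were called higher and 2 lower, with a median difference of 0.10. Sema5a encodes a membrane semaphorin with thrombospondin repeats. Its called peak of smallest p lies in an intron 61.7 kb downstream of the start site, at chr15:32306553-32306953, and held 99.6 reads in Malat1-guide cells and 12.7 in luciferase-guide cells, a 7.87-fold rise (adjusted p 2.61e-06, the authors' deposited table). The other called Sema5a peak, 83.8 kb downstream, held 234 reads in Malat1-guide cells and 60.1 in luciferase-guide cells (adjusted p 7.87e-05, the authors' deposited table).

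The remaining 6 Sema5a peaks were not called, and all 6 had the higher mean in Malat1-guide cells, with differences from 0.76 to 1.66. The RefSeq start of Sema5a lies under a peak that the authors assigned to Snhg18, a small nucleolar RNA host gene, and which is therefore not a member. That peak, at chr15:32244640-32245040, held 348 reads in Malat1-guide cells and 177 in luciferase-guide cells (adjusted p 0.00580, the authors' deposited table). It was the only case among the member genes in which the sole peak over a RefSeq start site was assigned to another gene.

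Peaks around Sema5a rose as well. From 500 kb before the first Sema5a peak to 500 kb past the last, the table holds 19 peaks, which span 1.05 Mb of chromosome 15, and all 19 had the higher mean in Malat1-guide cells, whatever gene they were assigned to. Of these, 8 were called higher and 0 lower, with a median difference of 1.21, against 0.21 over chromosome 15. On that chromosome 5.07% of peaks were called in either direction, against 2.73% of all peaks. The stretch was drawn around Sema5a, and the 8 calls include the 2 called Sema5a peaks. Whether the values of the 2 Sema5a peaks reflect the stretch or the sites themselves was not tested. Both stayed called after centring by chromosome or by 10 Mb window. The shifts taken out were 0.21 and 0.24, below the stretch median of 1.21, so centring could not separate the stretch from the sites.

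Sema3d, a secreted class 3 semaphorin, had 16 peaks, of which 2 fell. The stronger fall lies in intron 5, 117 kb downstream of the start site at chr5:12500032-12500432, with 53.2 reads in Malat1-guide cells and 279 in luciferase-guide cells, a 5.25-fold fall (adjusted p 2.02e-07, the authors' deposited table). The second fallen peak lies in intergenic sequence 173 kb upstream, with 115 reads in Malat1-guide cells and 245 in luciferase-guide cells (adjusted p 0.0113, the authors' deposited table). Of the 14 uncalled peaks, 11 had the lower mean in Malat1-guide cells, with a median difference of -0.53. A neighbour 124 kb downstream held 39.7 reads in Malat1-guide cells and 102 in luciferase-guide cells (adjusted p 0.0615, the authors' deposited table). This neighbour was called once differences were centred on the median or along abundance, but not by chromosome or by 10 Mb window. The promoter peak of Sema3d held 118 reads in Malat1-guide cells and 177 in luciferase-guide cells (adjusted p 0.434, the authors' deposited table).

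The other semaphorins had no called peak. The lowest p among them belonged to the promoter of Sema3a, the prototype collapsing semaphorin, where the peak held 32.1 reads in Malat1-guide cells and 7.93 in luciferase-guide cells (adjusted p 0.0731, the authors' deposited table). Class 3 semaphorins had 62 peaks at 7 genes with a median difference of 0.06, class 4 had 39 peaks at 6 genes with 0.18, and class 6 had 13 peaks at 4 genes with -0.09. Sema5b, the other class 5 gene, had 3 peaks with differences from -0.30 to 0.40. Sema7a, which has a lipid anchor and signals through integrins, had 6 peaks and a median of 0.30.

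**Figure D3:**
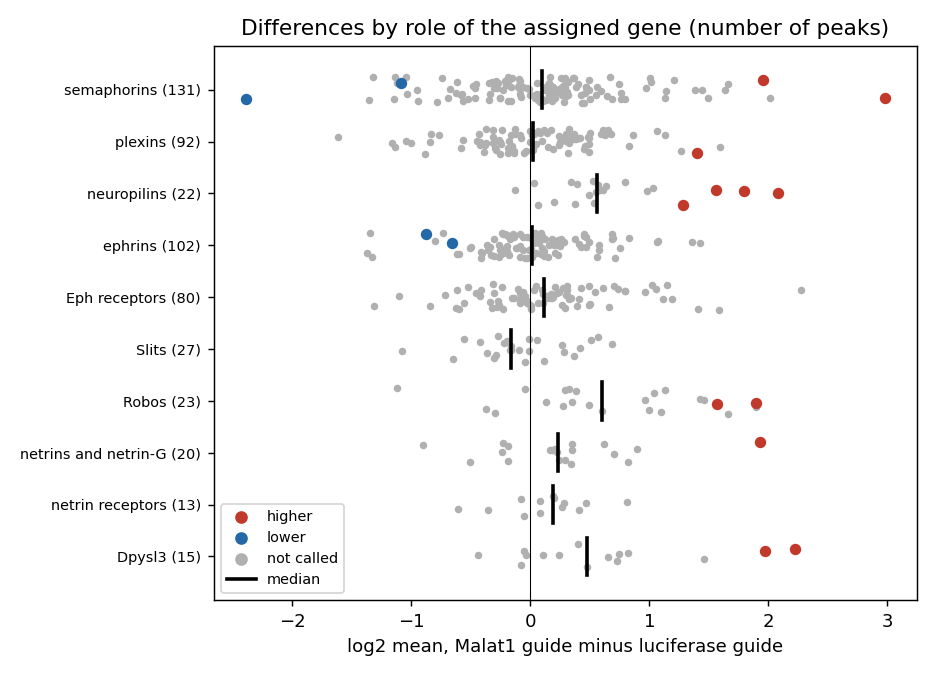
Log2 difference between the group means (Malat1-guide minus luciferase-guide cells) of each member peak, with a row for each role and the number of its peaks in parentheses. Red points were called higher, blue points lower, grey points neither, and the black bar is the median, which is highest for the Robos at 0.60 and lowest for the Slits at -0.16.

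Plexins, the semaphorin receptors, had a single called peak among 92 at 10 symbols. One of those symbols, Plxna4os1, is an antisense transcript at Plxna4, with 12 of the peaks. The called peak lies in an intron of Plxnb2, the widely expressed receptor of class 4 semaphorins, 8.11 kb downstream of the start site at chr15:89172276-89172676. It held 221 reads in Malat1-guide cells and 83.9 in luciferase-guide cells, a 2.64-fold rise (adjusted p 0.00995, the authors' deposited table). The call ended after centring by chromosome (0.0520) or by 10 Mb window (0.0541). Another RefSeq start of Plxnb2, at 89173951, lies nearer to this peak. The intronic peak over that start held 426 reads in Malat1-guide cells and 302 in luciferase-guide cells (adjusted p 0.209, the authors' deposited table). The Plxnb2 promoter, among the most open of the set, held 978 reads in Malat1-guide cells and 887 in luciferase-guide cells (adjusted p 0.771, the authors' deposited table).

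The other plexins were not called. Plxna2 had 13 peaks with a median difference of -0.31. Its peak of smallest p, 50.2 kb upstream, held 51.1 reads in Malat1-guide cells and 112 in luciferase-guide cells (adjusted p 0.0692, the authors' deposited table). That peak was called lower once differences were centred on the median (0.0442) or along abundance (0.0486). It was not called after centring by chromosome (0.0831) or by 10 Mb window (0.289). In Plxnd1, known for its part in vascular patterning, all 9 peaks had the higher mean in Malat1-guide cells, by 0.02 to 1.26, and the smallest adjusted p was 0.0870 in the authors' deposited table. Centred on the median, its promoter peak moved to -0.03, so not all 9 stayed above 0.

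Neuropilins carried the most higher calls of any role, all of them at Nrp2. Nrp2, a co-receptor for class 3 semaphorins and for VEGF-C, had 4 risen peaks among 21. The peak of smallest p lies in an intron 33.1 kb downstream of the start site at chr1:62736432-62736832, with 86.2 reads in Malat1-guide cells and 20.4 in luciferase-guide cells, a 4.23-fold rise. The risen peaks 48 kb and 63.5 kb downstream held 129 and 181 reads in Malat1-guide cells, against 53.0 and 61.5 in luciferase-guide cells. The last lies 259 kb upstream, inside Pard3b, a polarity gene, and held 77.9 reads in Malat1-guide cells and 22.4 in luciferase-guide cells. The 4 adjusted p-values ran from 0.00706 to 0.0385 in the authors' deposited table.

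The calls 48 kb and 63.5 kb downstream ended under centring on the median, along abundance or by 10 Mb window, with adjusted p between 0.0543 and 0.0779. Of the 17 uncalled Nrp2 peaks, 16 had the higher mean in Malat1-guide cells, with a median difference of 0.53, while chromosome 1 had a median of -0.003. The promoter peak held 422 reads in Malat1-guide cells and 292 in luciferase-guide cells (adjusted p 0.137, the authors' deposited table). Nrp1, the other neuropilin, had 1 peak, 1.08 kb from its start site, with 654 reads in Malat1-guide cells and 569 in luciferase-guide cells (adjusted p 0.690, the authors' deposited table). A further 10 peaks inside Nrp1 were assigned by the authors to Mir1903, and 9 of the 10 had the higher mean in Malat1-guide cells, with none called. The pair of smallest p held 62.5 and 36.1 reads in Malat1-guide cells, against 23.7 and 11.2 in luciferase-guide cells, at adjusted p 0.105 and 0.106 (the authors' deposited table). Without Nrp2, 8 higher and 4 lower calls were left among the members.

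**Figure D4:**
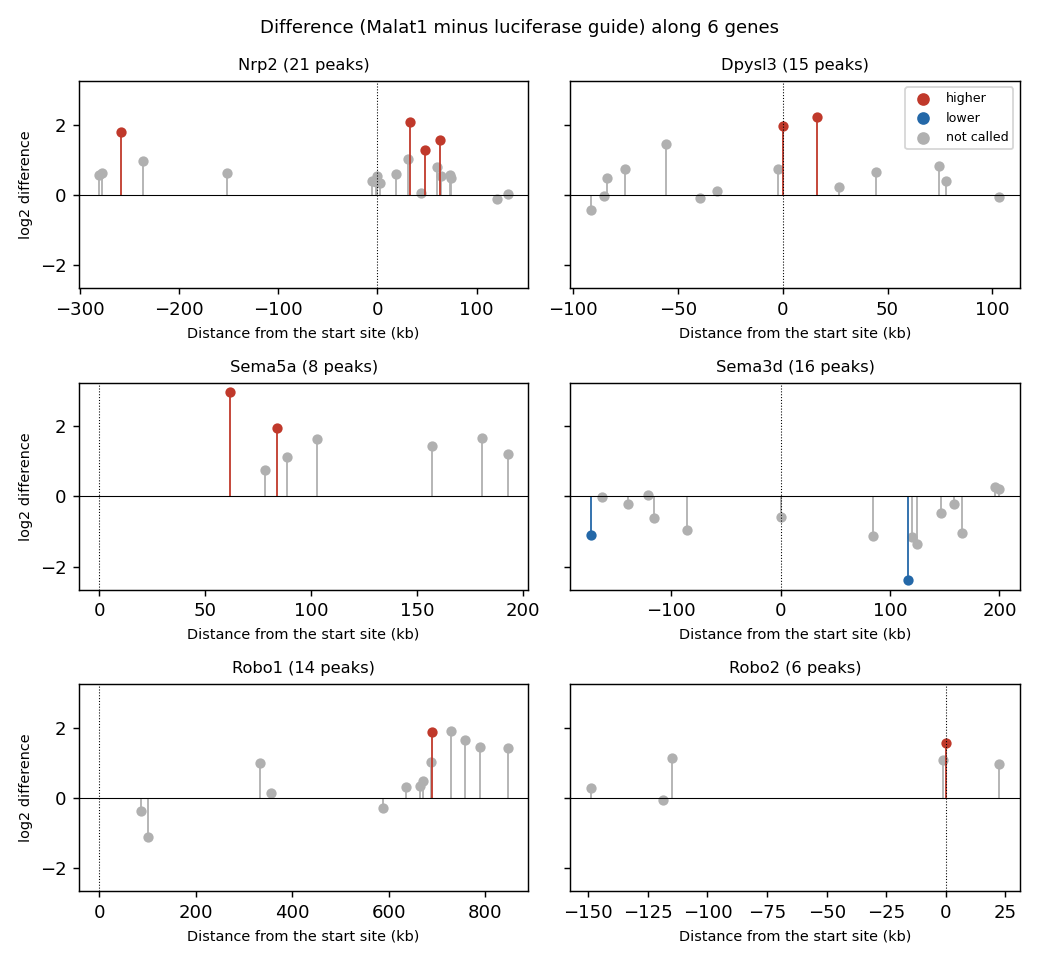
Log2 difference (Malat1-guide minus luciferase-guide cells, vertical axis) of every peak of Nrp2, Dpysl3, Sema5a, Sema3d, Robo1 and Robo2 against its signed distance from the start site in kb, with red for higher calls, blue for lower calls and grey for neither. The 8 Sema5a peaks all lie above 0, as do 20 of the 21 Nrp2 peaks, while 13 of the 16 Sema3d peaks lie below 0.

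Ephrins, the membrane-bound ligands, had 2 falls and no rise among 102 peaks at 7 genes, with a median difference of 0.01. Efna1, a lipid-anchored ephrin, had its called peak in intron 1, 3 kb downstream of the start site at chr3:89277737-89278137, with 261 reads in Malat1-guide cells and 412 in luciferase-guide cells. This was a 1.58-fold fall (adjusted p 0.0300, the authors' deposited table), and the call ended after centring by 10 Mb window (0.122). The 3 Efna1 promoter peaks held 101, 236 and 243 reads in Malat1-guide cells, against 167, 282 and 300 in luciferase-guide cells, and were not called.

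Efnb2, a transmembrane ephrin of arterial endothelium, had 35 peaks with a median of 0.02 and 1 call. The called peak lies 478 kb from the start site, in an intron of a transcript for which the table gives no gene ID, and held 158 reads in Malat1-guide cells and 290 in luciferase-guide cells, a 1.84-fold fall. Its adjusted p of 0.0426 was the largest among the calls in the authors' deposited table. The Efnb2 promoter held 866 reads in Malat1-guide cells and 835 in luciferase-guide cells. Efna5 had the most peaks of any member, 39, with a median of 0.06 and no call.

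Eph receptors had 0 called peaks among 80 at 13 genes by the authors' adjusted p, and 9 under 0.05 by the unadjusted p of the authors' deposited table. The EphA receptors had 56 peaks with a median difference of 0.21 and the EphB receptors 24 with -0.08. The smallest p belonged to an intronic Epha6 peak 20.4 kb from the start site, which held 27.1 reads in Malat1-guide cells and 5.60 in luciferase-guide cells (adjusted p 0.0509, the authors' deposited table). A peak 2.92 kb upstream of Epha2, a receptor often high in epithelial tumours, held 189 reads in Malat1-guide cells and 87.0 in luciferase-guide cells (adjusted p 0.0563, the authors' deposited table). The Epha2 promoter held 242 reads in Malat1-guide cells and 234.5 in luciferase-guide cells.

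Peaks assigned to Slit genes and to Robo genes had medians on opposite sides of 0. The 3 Slit genes had 27 peaks, of which 9 had the higher mean in Malat1-guide cells, with a median difference of -0.16 and 0 calls by the authors' adjusted p. In the authors' deposited table the unadjusted p was under 0.05 for a single Slit peak. It lies 258 kb upstream of Slit2 and held 23.8 reads in Malat1-guide cells and 50.1 in luciferase-guide cells. Peaks inside the Slit genes that the authors assigned to other genes, such as Mir8091 and Mir218-2, are not in these counts. Their differences went both ways, from -0.55 in Slit1 to 0.84 in Slit3, where most had the higher mean in Malat1-guide cells, and none was called. The 4 Robo genes had 23 peaks, of which 19 had the higher mean in Malat1-guide cells, with a median of 0.60. Of these, 2 were called higher, and 11 were under 0.05 by the unadjusted p of the authors' deposited table. The difference between Slit and Robo peaks was not tested.

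Robo2 was one of the pair of members with an assigned promoter peak that was called higher. The peak at chr16:74411539-74411939 held 172 reads in Malat1-guide cells and 58.1 in luciferase-guide cells, a 2.97-fold rise (adjusted p 0.00130, the authors' deposited table). It covers the start site next to the printed Robo2 bases, which is an internal one, since RefSeq places Robo2 from 73891976 to 75447443 on chromosome 16 on the minus strand. The called Robo1 peak lies in intron 19, 690 kb from the start site at chr16:72998689-72999089, and held 125 reads in Malat1-guide cells and 33.5 in luciferase-guide cells (adjusted p 0.00653, the authors' deposited table).

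Robo1 and Robo2 are neighbours, and the stretch that holds both rose at further sites. Between the first Robo1 peak and the last Robo2 peak lie 25 peaks over 2.17 Mb, of which 6 were called higher, 0 lower, and 21 had the higher mean in Malat1-guide cells. The other 4 calls were assigned to Mir691, a microRNA gene, and 1 of these, at chr16:74093562-74093962, lies inside Robo2 by the RefSeq bounds, with 31.1 reads in Malat1-guide cells and 6.15 in luciferase-guide cells. The stretch had a median difference of 1.04, against 0.26 over chromosome 16, itself the highest median of any chromosome. On that chromosome 3.69% of peaks were called in either direction, against 2.73% of all peaks. The stretch was drawn around Robo1 and Robo2, and the 6 calls include theirs. Both Robo calls held after centring by chromosome and by 10 Mb window, with adjusted p of 0.0246 for Robo2 and 0.0477 for Robo1 by window. The shifts taken out were 0.26 and 0.31, below the stretch median of 1.04, so centring could not separate the stretch from the sites. The part of the stretch in the 2 called Robo peaks was not tested.

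Netrins and netrin-G genes had 1 call among 20 peaks at 5 genes, with a median of 0.23. Ntng1 encodes netrin-G1, a lipid-anchored ligand of synapses. Its called peak lies in intron 2, 207 kb downstream of the start site at chr3:109936218-109936618, and held 164 reads in Malat1-guide cells and 43.2 in luciferase-guide cells, a 3.80-fold rise (adjusted p 8.61e-05, the authors' deposited table). None of its 20 neighbours within 500 kb was called, and their median difference was -0.13. The Ntng1 promoter had the lowest level of the 48 promoters measured in Malat1-guide cells, with 18.9 reads there and 16.6 in luciferase-guide cells.

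Ntn1, the secreted ligand of Dcc and neogenin, had 7 peaks and no call, though 2 peaks inside the gene that the authors assigned to Mir6406 were called higher. They held 137 and 102 reads in Malat1-guide cells, against 39.2 and 31.98 in luciferase-guide cells, at adjusted p 0.00624 and 0.0441 (the authors' deposited table). Neo1, the only netrin receptor of the set with peaks, had 13 and no call, and its promoter held 313 reads in Malat1-guide cells and 273 in luciferase-guide cells. Its smallest p belonged to an intronic peak with 103 reads in Malat1-guide cells and 58.8 in luciferase-guide cells (adjusted p 0.307, the authors' deposited table).

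The smallest p of the whole set belonged to the promoter of Dpysl3. The peak over the start site, at chr18:43438090-43438490, held 255 reads in Malat1-guide cells and 64.8 in luciferase-guide cells, a 3.93-fold rise (adjusted p 1.99e-08, the authors' deposited table). A second peak in intron 1, 16.3 kb downstream, held 197 reads in Malat1-guide cells and 42.1 in luciferase-guide cells, a 4.68-fold rise (adjusted p 0.00413, the authors' deposited table). Of the other 13 Dpysl3 peaks, 9 had the higher mean in Malat1-guide cells, with a median of 0.40. The 27 peaks within 500 kb of the promoter had a median of 0.10, and the only call among them was the intronic Dpysl3 peak.

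Few promoters differed much between the groups, and the called promoter peaks assigned to members were those of Dpysl3 and Robo2. The promoter peak over the RefSeq start of Sema5a was also called higher, but it was assigned to Snhg18 and is not counted here. A promoter peak was found at 48 of the 66 genes, and taking the peak nearest the start site in each, 41 of 48 group means differed by less than 1.5-fold. The most open were Ephb3, with 1108 reads in Malat1-guide cells and 974 in luciferase-guide cells, Plxnb2, and Efnb2. Dpysl3 ranked 18th of 48 in Malat1-guide cells and 32nd in luciferase-guide cells, and Robo2 ranked 25th in Malat1-guide cells and 34th in luciferase-guide cells. In all, 2 of 59 promoter peaks were called (3.39%), against 1.42% of the 13620 promoter peaks in the table. No error is available for the levels, so neighbours in this order were not told apart by a test.

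**Figure D5:**
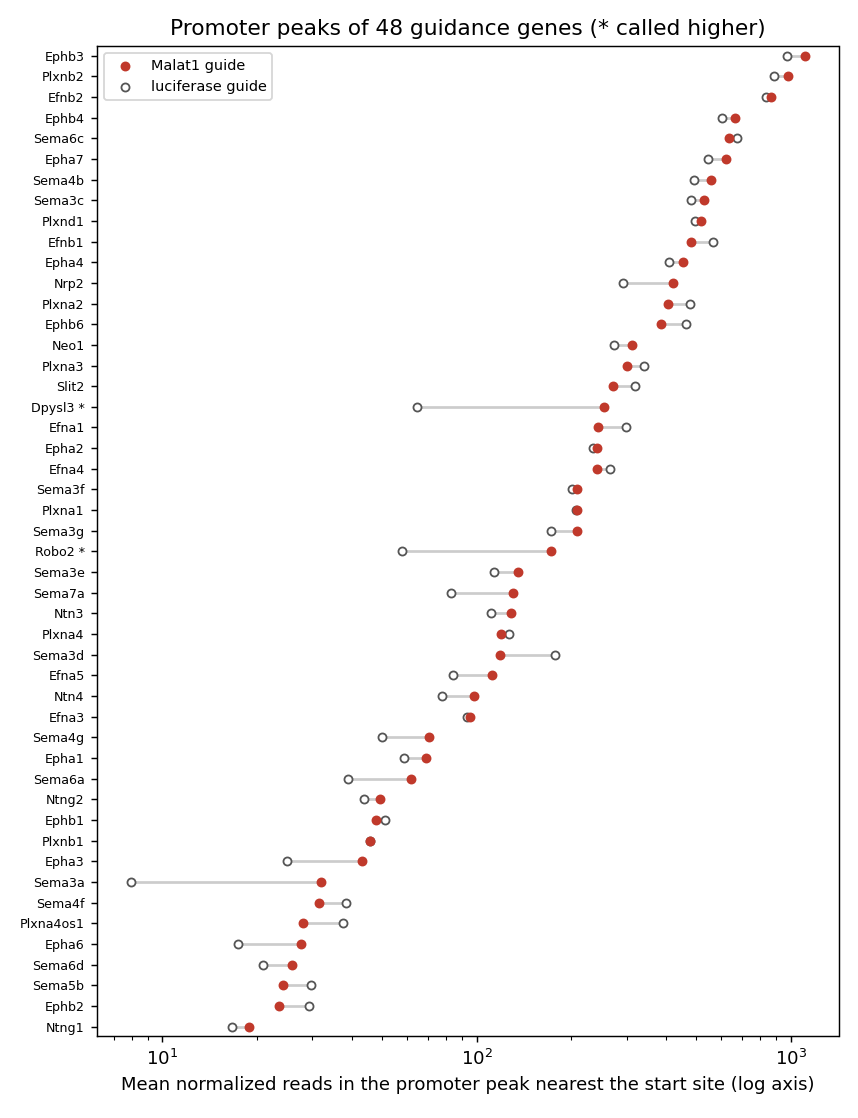
Mean normalized reads (log axis) in the promoter peak nearest the start site of 48 guidance genes, ordered from the most to the least open in Malat1-guide cells. Filled red points show Malat1-guide cells, open points luciferase-guide cells, a grey line joins them, and an asterisk marks Dpysl3 and Robo2, the genes with a called promoter peak.

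The calls lay mostly in introns. Of the 16 called peaks, 13 carried the intron class, 2 the promoter class and 1 the intergenic class. Among 204 intronic members 10 were called higher and 3 lower (6.37%, against 3.03% of all intronic peaks), while among 214 distal intergenic members 0 were called higher and 1 lower (0.467%, against 3.19% of all such peaks). These shares are a description and were not tested. The median distance from a start site was 44.1 kb for guidance peaks and 19.3 kb for all peaks, and 9 of the 16 calls lay more than 50 kb away. Of the members 50 to 200 kb from a start site 3.65% were called, against 3.94% of all peaks at that distance, and of those over 200 kb away 3.70%, against 5.66%.

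Other genes of the guidance pathway, from a list of 50 names that holds no member, had calls at 11 genes, among them netrin and Robo partners. The table had 362 peaks at 48 of them, of which 12 at 10 genes were called higher and 1 lower (3.59%, against 2.73% of all peaks), with a median difference of 0.14. Unc5c, a repulsive netrin receptor, had 2 risen peaks among 3, and its promoter peak held 288 reads in Malat1-guide cells and 88.2 in luciferase-guide cells (adjusted p 7.20e-06, the authors' deposited table). An intronic peak of Nrcam, an adhesion molecule that partners neuropilins, held 98.2 reads in Malat1-guide cells and 16.6 in luciferase-guide cells (adjusted p 7.16e-05, the authors' deposited table). Intronic peaks of Vav2 and Farp1 rose 2.11-fold and 3.43-fold, and Nck2, an adaptor between guidance receptors and actin, had 2 risen peaks among 17. The fall was at Srgap3, a Slit-Robo GTPase-activating protein, where the peak held 225 reads in Malat1-guide cells and 445 in luciferase-guide cells (adjusted p 0.00488, the authors' deposited table). Rgmb, Rasa1, Fyn, Mical2 and Mical3 had 1 risen peak each.

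Markers of cell types were read first at promoters. Of 7 epithelial and lung adenocarcinoma markers, Cdh1, Krt8 and Krt18 had a promoter peak, and Epcam, Krt7, Nkx2-1 and Sftpc had none in the table. Of 5 leukocyte markers 0 had one, of 4 endothelial markers Kdr alone, and of 4 fibroblast markers Col1a1 and Pdgfrb. Of 5 neuronal markers 4 had one (Map2, Snap25, Syt1 and Tubb3), with reads summed over the strongest promoter peak of each gene of 1148 in Malat1-guide cells and 927 in luciferase-guide cells and 1 of 5 peaks called higher. The summed promoter reads of the epithelial list were 539 in Malat1-guide cells and 368 in luciferase-guide cells. Over all peaks assigned to each list, 5 of 23 were called for the endothelial markers, all 5 higher and at Cdh5, against 2.73% of all peaks in the table. The counts were 2 of 32 for the neuronal, 1 of 38 for the epithelial, 0 of 22 for the fibroblast and 0 of 6 for the leukocyte markers. The part of any of these marker lists in the guidance results was not tested.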

How the data were processed

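ATAC-seq was analysed in KPC cells from 4 libraries, 2 with a Malat1 guide (mA2 dRNA) and 2 with a luciferase guide (Con dRNA). The build mm10 and the tools Bowtie2, FastQC, Picard, DiffBind, MACS2, deepTools and ChIPseeker are named per the submitters' processing notes. What each did, with which settings (duplicates, the shift to the insertion site, library scaling, pooled or separate peak calling), was not given in the sources used here. Per the file headers, the authors deposited 1 table with the log2 mean normalized read concentration of each group, a log2 fold, a p-value and an adjusted p-value, an annotation class, and the distance to the start site in bp. The deposited adjusted p equalled a Benjamini-Hochberg adjustment over all 80881 peaks to within 7.4e-06. The authors' log2 fold was smaller, with a median of 0.77 of the difference of means in called peaks and 0.10 in peaks not called. Each fold printed is therefore the ratio of the 2 deposited means. Differences given for uncalled peaks are likewise of those means and mostly far exceed the authors' log2 fold. The table's 4 per-library columns bear names found in no label and were left out, so depth per library, replicate spread and counting intervals were not computed.

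Members, gene lists and tests were chosen with earlier results of these data known, and a further marker list is not reported here. Named peaks are all called members, the smallest p in each role without a call, and up to 6 of the other pathway genes; further peaks named were chosen after their values were seen. For centring, each p-value was turned into a normal score, a standard error taken as the difference over the score, and a shift (median of all peaks, running median of 501 peaks along abundance, chromosome, or 10 Mb window) subtracted before p was recomputed and adjusted over all peaks. This step was run on simulated data with shifts per chromosome and isolated changes larger than any member difference. A criterion was set only for centring by chromosome. The simulation held no raised stretches and no trend along abundance, so it does not test those cases or smaller differences. Python 3.11.15, pandas 2.3.3 and SciPy 1.17.1 were used.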

Additional observations from a re-analysis of the deposited data

How the results depend on the processing

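Of the 16 called members, 10 had an adjusted p under 0.01 in the authors' deposited table, 14 differed at least 2-fold, and 14, 14, 15 and 12 remained called after centring on the median, along abundance, by chromosome and by 10 Mb window. None of the 25 peaks followed changed direction under any setting that kept it. The filter at 32 reads kept 24 of them and left out the Epha6 peak. Among other peaks with their levels in the text, the small uncalled differences at 4 promoters changed sign: centred on the median, Epha2 moved to -0.05 and Efnb2 to -0.04, and centred by chromosome, Ephb3 moved to -0.08 and Plxnb2 to -0.07. The Plxnd1 promoter also changed sign, to -0.03 centred on the median. Counts of peaks with the higher mean were not recomputed after centring.

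Member counts moved as follows. With an adjusted p under 0.1, 22 were higher and 9 lower; under 0.01, 1 was lower. With a 2-fold minimum 2 were lower. Centring on the median gave 7 lower and along abundance 8. Peaks within 3 kb of the start site gave 2 higher and 0 lower, peaks within 50 kb gave 6 and 1, and 1 peak per gene gave 2 and 1. Over all peaks, 867 were higher and 169 lower under 0.01, 629 were lower under 0.1, and 1179 and 1069 were higher after centring by chromosome and by window. The other pathway genes had 6 higher calls under 0.01, 3 lower under 0.1, 0 lower with the fold minimum, and 2 lower after centring along abundance or by window. The cause of these shifts was not tested beyond what each setting itself changes.

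The median member difference of 0.10 became 0.0069 when centred on the median, 0.0015 along abundance, 0.0292 by chromosome and 0.0384 by window. It was 0.12 for peaks above 32 reads, 0.0542 within 3 kb, 0.0995 within 50 kb, 0.0941 with 1 peak per gene and 0.0848 without Nrp2.

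No paired analysis was possible because the columns of single libraries bear neither a sample's name nor a replicate number; for the same reason fits per library and fits without each library were not run. Limits: 2 libraries per group, an unstated test, no replicate error beside any mean, and gene assignments that are the authors' own.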

Other observations

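Peaks that lie inside a guidance gene by its RefSeq bounds but that the authors assigned to another gene numbered 107, at 30 of the 66 genes. Of these, 5 were called higher and 0 lower (4.67%), where the whole table had 2.73% called and 2.23% called higher. Besides the Snhg18, Mir691 and Mir6406 peaks at Sema5a, Robo2 and Ntn1, an exonic peak inside Sema4a, a membrane semaphorin, was assigned to Mir7011. It held 300 reads in Malat1-guide cells and 134 in luciferase-guide cells, a 2.24-fold rise (adjusted p 9.10e-04, the authors' deposited table), while none of the 7 peaks assigned to Sema4a itself was called. These 5 called peaks are not in the counts by gene symbol.

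The risen sites of several guidance genes stood in different surroundings. Within 500 kb, the median difference of all other peaks was 1.21 around the called Sema5a peaks, 1.03 around Robo2, 0.998 around Robo1 and 0.53 around the Nrp2 peak 33.1 kb downstream. It was 0.13 around Plxnb2, 0.10 around the Dpysl3 promoter and -0.13 around Ntng1. Around the fallen Sema3d peak in intron 5 it was -0.34, around Efna1 -0.13 and around Efnb2 0.02. Part of these other peaks were assigned to the same gene: 7 of 17 at Sema5a, 5 of 6 at Robo2, 11 of 13 at Robo1 and 20 of 33 at Nrp2. The same held for 5 of 82 at Plxnb2, 14 of 27 at Dpysl3 and 3 of 20 at Ntng1. For the falls it was 15 of 23 at Sema3d, 7 of 100 at Efna1 and 29 of 29 at Efnb2.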
